A study of Mus musculus with 8 samples.

Results

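The genes described here are the 8 CXC chemokines Cxcl1, Cxcl2, Cxcl3, Cxcl5, Cxcl9, Cxcl10, Cxcl11 and Cxcl16. They were taken by mouse symbol, as the neutrophil- and T cell-attracting members of the family with Cxcl12 left out, and all 8 were found among the 55401 gene rows of the deposited count table. RNA-seq had been done on bone marrow-derived macrophages (BMDMs), primary macrophages grown from mouse bone marrow, in 4 groups of 2 libraries. Every mouse carried floxed Mettl3 alleles; the KO cells also carried Lyz2-Cre (Lyz2-Cre-Mettl3fl/fl) and the WT cells did not (Mettl3fl/fl). Mettl3 is the catalytic subunit of the m6A RNA methyltransferase, and the Lyz2 promoter drives Cre in macrophages and other myeloid cells. The presence of Cre and the loss of Mettl3 cannot be told apart in this design, and the labels give neither the age nor the strain of the mice. The groups were KO BMDMs given 50 ng/ml lipopolysaccharide (LPS) overnight and then 10 µM nigericin for 3 h (stimulated KO), WT BMDMs given the same (stimulated WT), KO BMDMs given PBS (PBS KO) and WT BMDMs given PBS (PBS WT). LPS is a bacterial ligand of Toll-like receptors and nigericin a potassium ionophore that triggers the NLRP3 inflammasome. None of the samples analysed here received LPS or nigericin alone, so the 2 agents cannot be told apart, and the series text gives the nigericin time as 1 h or 3 h.

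CXC chemokines are small proteins that guide leukocytes along gradients. Cxcl1, Cxcl2, Cxcl3 and Cxcl5 act on the receptor Cxcr2 and draw neutrophils to inflamed tissue; in macrophages their genes are classic NF-kB targets whose mRNAs are short-lived. Cxcl9, Cxcl10 and Cxcl11 are induced by interferons and act on Cxcr3 of activated T and NK cells, while Cxcl16 is made as a membrane protein, is shed by the protease Adam10 and acts on Cxcr6.

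The members fell into 3 places in the genome (GENCODE M21, GRCm38). Cxcl5, Cxcl3, Cxcl1 and Cxcl2 lay in this order on the plus strand of chromosome 5, within chr5:90759360-90905938, a span of 147 kb. Cxcl9, Cxcl10 and Cxcl11 lay on the minus strand of the same chromosome within chr5:92321347-92365485, a span of 44.1 kb, and Cxcl16 lay on the minus strand at chr11:70453983-70459984. Cxcl10 and Cxcl11 lie within the gene Art3, which runs on the other strand. Art3 itself held 0 to 20 counts per library. Cxcl16 overlaps Zmynd15 by 552 bases, and Zmynd15 held 1143 to 2823 counts per library against at least 14957 for Cxcl16. Whether the counting used strand is not given in the sources used here, so reads of overlapping genes may not have been separated. The annotation lists Cxcl11 as a polymorphic pseudogene, a gene that is intact in some strains only, so its mRNA level says nothing of a protein.

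The promoters of 5 members, Cxcl1, Cxcl2, Cxcl3, Cxcl9 and Cxcl10, were matched by symbol in the RefSeq table of the same build (GRCm38.p6), and those of Cxcl5, Cxcl11 and Cxcl16 were not used here. They are printed as the members found in that table and not for their response, as all 8 members rose on stimulation. In 3 of them the matched letters of 1 motif are the same. Each line gives the 220 bases that end 1 base before the annotated start, on the gene's own strand, with motif matches in capitals.
Cxcl1 promoter, chr5:90891025-90891244, plus strand: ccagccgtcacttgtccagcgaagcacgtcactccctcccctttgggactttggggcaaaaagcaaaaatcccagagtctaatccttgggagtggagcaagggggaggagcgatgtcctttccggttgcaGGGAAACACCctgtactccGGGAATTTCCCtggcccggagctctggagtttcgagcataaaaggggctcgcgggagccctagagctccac
Cxcl2 promoter, chr5:90903679-90903898, plus strand: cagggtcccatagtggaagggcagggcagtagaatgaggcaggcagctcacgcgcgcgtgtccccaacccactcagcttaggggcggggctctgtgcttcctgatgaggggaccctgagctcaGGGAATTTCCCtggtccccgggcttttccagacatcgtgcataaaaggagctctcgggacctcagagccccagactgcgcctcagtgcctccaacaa
Cxcl3 promoter, chr5:90785881-90786100, plus strand: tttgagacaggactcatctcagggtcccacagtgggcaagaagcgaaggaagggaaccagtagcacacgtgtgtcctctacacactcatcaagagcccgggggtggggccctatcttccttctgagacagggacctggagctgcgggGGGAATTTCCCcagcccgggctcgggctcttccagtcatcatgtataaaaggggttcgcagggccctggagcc
Cxcl9 promoter, chr5:92328080-92328299, minus strand: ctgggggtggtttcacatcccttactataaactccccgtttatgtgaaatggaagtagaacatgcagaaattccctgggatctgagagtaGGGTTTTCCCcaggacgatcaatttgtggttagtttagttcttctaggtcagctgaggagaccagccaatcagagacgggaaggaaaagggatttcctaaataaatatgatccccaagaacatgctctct
Cxcl10 promoter, chr5:92348890-92349109, minus strand: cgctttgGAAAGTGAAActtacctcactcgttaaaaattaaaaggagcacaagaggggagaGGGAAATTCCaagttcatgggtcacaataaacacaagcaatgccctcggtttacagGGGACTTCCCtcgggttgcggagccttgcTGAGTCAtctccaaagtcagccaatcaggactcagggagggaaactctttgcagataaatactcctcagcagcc

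The kappaB motif that NF-kB dimers recognise, taken as GGGA, any 4 letters and then CC, was searched on both strands of the 250 bases before the start. It was found in 5 of the 5 promoters, and in 17.6% of all 32851 promoters in the table. Cxcl1, Cxcl2 and Cxcl3 held the same match, GGGAATTTCC, at -71 to -62, -97 to -88 and -73 to -64 from the start, each with an overlapping match on the other strand. Cxcl9 had 1 match, on the other strand, at -130 to -121. Cxcl10 had matches at -159 to -150 and -103 to -94. It was the one member promoter of the 5 with the interferon-response motif, taken as GAAA, any 2 letters and GAAA again (2.98% of all promoters), at -213 to -204, and with the AP-1 letters TGANTCA (6.75%), at -74 to -68. The letters TTCNNNGAA of the GAS motif were searched as well and found in 0 of the 5 promoters, beside 7.02% of all promoters. A match describes the letters only.

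The 3′ untranslated regions of the neutrophil-attracting members were rich in ATTTA, the core of the AU-rich elements that decay proteins such as Zfp36 bind. Windows of 30 bases from 3 genes are shown for their density of the pentamer, which is in capitals.
Cxcl1 AU-rich window: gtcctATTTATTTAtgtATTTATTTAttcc
Cxcl2 AU-rich window: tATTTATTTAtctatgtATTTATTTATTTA
Cxcl3 AU-rich window: gcatcttATTTAatgtttATTTAatatcaa
The annotated 3′ untranslated region held 11.8 ATTTA per kb in Cxcl1, 7.36 in Cxcl2, 7.75 in Cxcl3 and 4.50 in Cxcl5. Among 12771 genes with a 3′ untranslated region of at least 100 bases, 0.36%, 1.86%, 1.46% and 7.64% reached the densities of those 4 genes, and the median was 1.32 per kb. Cxcl10 had 3.01 per kb, Cxcl16 1.41, Cxcl9 1.22 and Cxcl11 0.821. The letters GGACT, a common form of the sequence that Mettl3 methylates, occurred 4 times each in the transcripts of Cxcl9 and Cxcl16. They occurred 2 times in Cxcl1, 1 time each in Cxcl5 and Cxcl10, and 0 times in Cxcl2, Cxcl3 and Cxcl11. Per kb of transcript this was 2.10 in Cxcl1, 1.48 in Cxcl16, 1.38 in Cxcl9, 0.739 in Cxcl10 and 0.635 in Cxcl5. The median over the 12771 genes was 1.05 per kb. Methylation itself was not measured here.

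The libraries held 55032057 to 65487739 counts each. Levels are given as CPM, the counts scaled to the TMM-adjusted library size, and tests are edgeR's quasi-likelihood test in 1 fit over the 8 libraries, with Benjamini-Hochberg adjustment over 17470 tested genes and a threshold of 0.05. The labels do not tie the 2 libraries of a group to separate mice or cultures, so each p-value reflects the spread among the libraries at hand, and that spread may be technical. In bulk RNA, fewer cells of a type and less RNA per cell cannot be told apart. Mettl3, counted over the whole gene, had 9.08 and 7.87 CPM in stimulated KO libraries, 28.2 and 23.4 in stimulated WT libraries, 5.63 and 6.33 in PBS KO libraries and 13.6 and 13.3 in PBS WT libraries. It was lower in KO after stimulation (log2 fold change -1.61 ± 0.14, SE, adjusted p = 0.00283) and with PBS (-1.17 ± 0.14, adjusted p = 0.0143), the second call being lost without either PBS KO or either PBS WT library (adjusted p up to 0.0805). All 7 macrophage markers were present in every library. Their summed level was 25522 to 27122 CPM in KO libraries and 41060 to 47168 CPM in WT libraries. Most of it was Lyz2, the gene that carries Cre, with 14744 to 17514 CPM in KO and 32222 to 35400 CPM in WT. Ly6g of neutrophils and Cd3e of T cells were at 0 in all 8 libraries.

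With PBS the group was dominated by Cxcl16. Levels were set per kb of exon, with the exons of all annotated transcripts merged. For Cxcl1, Cxcl2, Cxcl3 and Cxcl10 this merged length was the whole gene, at 1875, 2068, 3498 and 2252 bases. The transcripts searched for GGACT had 953, 1859, 1016 and 1353 bases. The order and the shares thus depend on the length used, and other lengths were not tried. Cxcl16 stood at 91.0 CPM per kb in PBS KO libraries and 92.8 in PBS WT libraries. This was 92.3% and 88.0% of the summed level of the 8 members. Cxcl2 followed with 5.39 CPM per kb in PBS KO and 9.54 in PBS WT, then Cxcl1 with 1.31 in PBS KO and 2.49 in PBS WT. Cxcl10, Cxcl9, Cxcl5 and Cxcl3 averaged under 0.4 CPM per kb in both genotypes, and Cxcl11 had 0 counts in all 4 PBS libraries. In this order the libraries of Cxcl9 and Cxcl5 overlapped in both genotypes, as did those of Cxcl5 and Cxcl3 in PBS WT; the other neighbours did not overlap.

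After stimulation Cxcl2 led on the same merged exon lengths, with 316 CPM per kb in stimulated KO libraries and 374 in stimulated WT libraries. Cxcl16 was next (155 in stimulated KO, 206 in stimulated WT), then Cxcl10 (125 in stimulated KO, 144 in stimulated WT), Cxcl1 (82.7 in stimulated KO, 78.9 in stimulated WT) and Cxcl9 (26.4 in stimulated KO, 34.1 in stimulated WT). The last 3 places differed between the genotypes. In stimulated KO libraries they were Cxcl5 (3.63 CPM per kb), Cxcl3 (2.50) and Cxcl11 (0.726), and in stimulated WT libraries Cxcl3 (1.37), Cxcl11 (0.634) and Cxcl5 (0.398). No neighbours in either order overlapped between their libraries. Together the 8 members took 0.172 and 0.160% of all counts in stimulated KO libraries and 0.182 and 0.179% in stimulated WT libraries, against 0.0344 and 0.0272% in PBS KO libraries and 0.0322 and 0.0312% in PBS WT libraries.

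**Figure D1:**
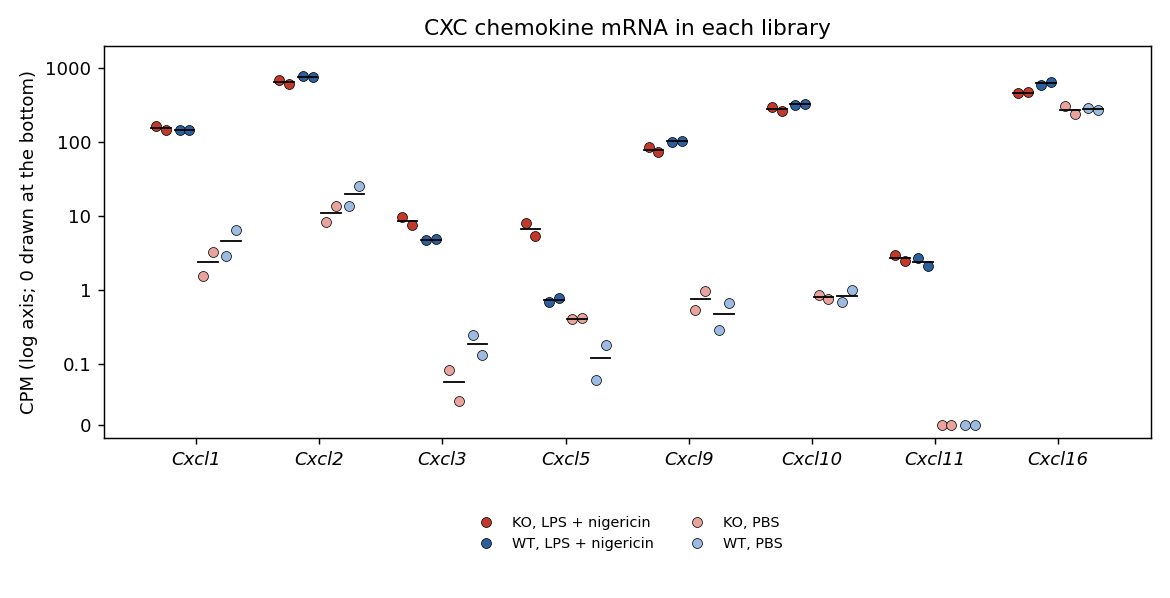
Each point is 1 library and each bar the mean of the 2 libraries of a group; the vertical axis gives CPM on a log scale with 0 drawn at the bottom, and the groups of each gene run from stimulated KO to PBS WT. The other 7 members were far higher after LPS and nigericin, Cxcl16 was already between 239.6 and 310.5 CPM with PBS, and Cxcl5 shows the widest gap between stimulated KO and stimulated WT.

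Does the stimulus raise the members in each genotype? All 8 were called higher on stimulation in KO, where 20.2% of all tested genes were called higher and 19.0% lower, and all 8 in WT, where 20.6% were called higher and 20.0% lower. With library size alone the split over all tested genes in WT was 2713 higher and 4720 lower, against 3592 and 3490 with TMM scaling, and all 8 members were still called higher. Cxcl3 and Cxcl11 passed the filter on low counts only through their stimulated libraries and so had to differ; the other 6 passed on their PBS libraries too. The median log2 fold change of the members was 5.93 in KO and 4.81 in WT, with Cxcl11 at its lower bound, beside -0.03 and -0.01 over all tested genes. Of 8 neutrophil markers, S100a8 and Camp were called higher too, in both genotypes, and 0 were called lower. The tested markers had a median log2 fold change of -0.86 in KO. In WT it was -0.86, or 0.28 with Camp at its lower bound. The list summed to 33.7 and 30.4 CPM in stimulated KO libraries and 28.1 and 35.5 in stimulated WT libraries. S100a8 alone held 28.5 and 26.5 CPM of this in KO and 26.3 and 32.1 in WT. With PBS the list summed to 6.16 and 6.18 CPM in KO and 4.04 and 4.24 in WT. Ly6g was at 0 throughout. The part of such cells in the chemokine levels was not tested.

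Cxcl10, the interferon-induced Cxcr3 ligand, moved most in both genotypes among the members with a fold. It had 297 and 264 CPM in stimulated KO libraries against 0.868 and 0.753 in PBS KO libraries, and 320.3 and 327 in stimulated WT libraries against 0.691 and 1.01 in PBS WT libraries. In both genotypes the stimulated libraries stood at 264 CPM or more and the PBS libraries near 1 CPM. Replicates were close except in PBS WT, where the second library was 1.46 times the first. The log2 fold change was 8.43 ± 0.19 in KO (SE, edgeR adjusted p = 6.27e-07) and 8.57 ± 0.19 in WT (adjusted p = 5.37e-07). Cxcl9, the other abundant Cxcr3 ligand, had 86.1 and 73.4 CPM in stimulated KO libraries against 0.545 and 0.977 in PBS KO, and 101 and 105 in stimulated WT libraries against 0.292 and 0.677 in PBS WT. It rose by 6.70 ± 0.37 in KO (edgeR adjusted p = 1.61e-05) and by 7.72 ± 0.39 in WT (adjusted p = 1.08e-05), or 8.45 in WT without the second PBS WT library. Cxcl11 had 2.99 and 2.53 CPM in stimulated KO libraries and 2.71 and 2.10 in stimulated WT libraries, from 165, 166, 149 and 122 counts, against 0 counts with PBS. Set against a floor of 12 counts per library, it was at least 13.9-fold higher in KO (edgeR adjusted p = 2.45e-04) and at least 13.2-fold higher in WT (adjusted p = 2.56e-04). All 3 Cxcr3 ligands were thus near or at 0 with PBS and detected in every stimulated library.

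Cxcl2 and Cxcl1, the abundant neutrophil attractants, had a measurable PBS level and rose well above it. Cxcl2 had 686 and 621 CPM in stimulated KO libraries against 8.34 and 14.0 in PBS KO, and 777 and 768 in stimulated WT libraries against 13.6 and 25.9 in PBS WT. Its log2 fold change was 5.87 ± 0.39 in KO (edgeR adjusted p = 4.13e-05) and 5.29 ± 0.38 in WT (adjusted p = 5.92e-05). Cxcl1 had 164 and 146 CPM in stimulated KO libraries against 1.57 and 3.33 in PBS KO, and 148 and 147 in stimulated WT libraries against 2.89 and 6.45 in PBS WT. In PBS libraries of each genotype both genes were uneven, the second library standing 1.67 to 2.24 times above the first. Cxcl1 rose by 5.98 ± 0.49 in KO (edgeR adjusted p = 1.06e-04) and 4.98 ± 0.46 in WT (adjusted p = 1.94e-04); without the second PBS KO library the KO value was 6.63, and without the second PBS WT library the WT value was 5.67.

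Cxcl3 and Cxcl5, the other Cxcr2 ligands, were scarcer. Cxcl3 had 9.79 and 7.72 CPM in stimulated KO libraries against 0.0851 and 0.0320 in PBS KO, and 4.75 and 4.87 in stimulated WT libraries against 0.246 and 0.135 in PBS WT. The PBS levels rest on 5 and 2 counts in KO and 16 and 9 in WT, below the floor of 12 counts in both PBS KO libraries and 1 PBS WT library. Its fitted log2 fold change was 7.19 ± 0.43 in KO (edgeR adjusted p = 2.44e-05; 8.0 without the first PBS KO library) and 4.65 ± 0.36 in WT (adjusted p = 8.57e-05). With each library below the floor raised to it, the log2 ratios of the group means were 5.46 in KO and 4.50 in WT. Cxcl5 had 8.11 and 5.40 CPM in stimulated KO libraries against 0.409 and 0.416 in PBS KO, and 0.691 and 0.792 in stimulated WT libraries against 0.0614 and 0.180 in PBS WT. The PBS WT values rest on 4 and 12 counts, below the floor in 1 library and at it in the other. It rose by 4.03 ± 0.42 in KO (edgeR adjusted p = 3.50e-04). In WT it rose by 2.59 ± 0.47 (edgeR adjusted p = 0.00418), or 3.55 without the second PBS WT library and 2.02 with the first raised to the floor, and limma-voom did not call it (adjusted p = 0.0605; range over the alternatives 2.31e-05 to 0.0605).

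Cxcl16, the shed membrane chemokine, moved least. It had 467 and 471 CPM in stimulated KO libraries against 310.5 and 239.6 in PBS KO, and 589.8 and 657 in stimulated WT libraries against 291 and 269.9 in PBS WT. The stimulated libraries lay above the PBS libraries in both genotypes. The rise was 1.71-fold in KO (0.77 ± 0.13 on the log2 scale, edgeR adjusted p = 0.00284) and 2.22-fold in WT (1.15 ± 0.13, adjusted p = 4.37e-04).

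**Figure D2:**
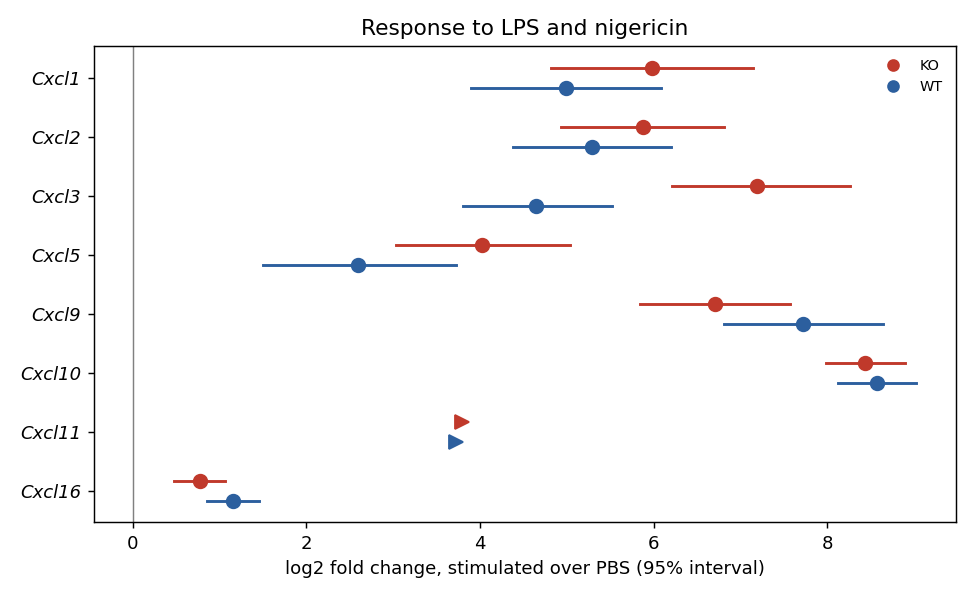
Points give the log2 fold change of stimulated over PBS libraries with its 95% interval, KO above WT for each gene; triangles mark the lower bound for Cxcl11, which had 0 counts with PBS. The members spread from 0.77 for Cxcl16 in KO to 8.57 for Cxcl10 in WT. The gap between the genotypes for Cxcl3 rests on PBS libraries below the floor of 12 counts.

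Does the genotype change the members after stimulation? Cxcl5 was higher in stimulated KO libraries than in stimulated WT libraries, and no other member was called, beside 4.92% of all tested genes called in either direction and 2.91% called higher. The split over all tested genes was 508 higher and 352 lower, and 1044 higher and 236 lower with library size alone. Cxcl5 averaged 6.75 ± 1.91 CPM in stimulated KO and 0.741 ± 0.0710 CPM in stimulated WT (SD, n = 2 each), a 9.08-fold difference. The log2 fold change was 3.18 ± 0.40 (95% interval 2.24 to 4.14, edgeR adjusted p = 0.00942). Each of the 2 stimulated KO libraries lay above both stimulated WT libraries. With 7 libraries the value held between 2.86 and 3.45, but the call was lost without the first stimulated KO library (2.86, adjusted p = 0.0698), without the first stimulated WT library (3.09, adjusted p = 0.0549) and without the second stimulated WT library (3.29, adjusted p = 0.0517). Over all the alternatives the adjusted p ran from 8.55e-11 to 0.0698.

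The stimulated libraries of the genotypes did not overlap for 6 of the 8 members (Cxcl2, Cxcl3, Cxcl5, Cxcl9, Cxcl10 and Cxcl16), a pattern that 50.2% of all tested genes showed. Cxcl3 averaged 8.75 ± 1.47 CPM in stimulated KO and 4.81 ± 0.0869 CPM in stimulated WT (SD, n = 2 each), a log2 difference of 0.86 ± 0.29 (95% interval 0.18 to 1.54, edgeR adjusted p = 0.158). It passed the threshold in limma-voom (adjusted p = 0.0369; range over the alternatives 0.0369 to 0.512). Cxcl16 averaged 469 ± 2.60 CPM in stimulated KO and 623 ± 47.3 CPM in stimulated WT, a difference of -0.41 ± 0.12 (-0.71 to -0.11, edgeR adjusted p = 0.127). DESeq2 called it lower (adjusted p = 0.0447; range over the alternatives 0.0447 to 0.375). Cxcl3, Cxcl5 and Cxcl16 were the 3 members at an unadjusted p under 0.05, a level that 19.9% of tested genes reached.

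The remaining 5 did not pass in any of the tools. Cxcl1 was 155 ± 12.5 CPM in stimulated KO and 148 ± 0.884 CPM in stimulated WT, and its 95% interval of -0.84 to 0.98 on the log2 scale covers ratios from 0.558 to 1.97. For Cxcl2 the difference was -0.24 ± 0.32 (-0.99 to 0.51), for Cxcl9 -0.37 ± 0.27 (-1.01 to 0.27), for Cxcl10 -0.21 ± 0.13 (-0.51 to 0.10) and for Cxcl11 0.20 ± 0.30 (-0.57 to 0.97). Cxcl2, Cxcl9 and Cxcl10 thus had lower mean values in KO, Cxcl1 and Cxcl11 higher ones, each within the error of the fit (edgeR adjusted p from 0.446 to 0.962).

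With PBS 0 of the 7 members with counts were called between KO and WT by edgeR, beside 1.55% of all tested genes; 3 (Cxcl2, Cxcl3 and Cxcl5) were at an unadjusted p under 0.05, beside 15.4%. DESeq2 called 1 of them, Cxcl5 (adjusted p = 0.0486; range over the alternatives 0.0486 to 0.404), and limma-voom 0. Cxcl5 averaged 0.413 ± 0.00560 CPM in PBS KO and 0.121 ± 0.0842 CPM in PBS WT, a log2 difference of 1.75 ± 0.48 (0.63 to 2.90, edgeR adjusted p = 0.154). The value was 2.70 without the second PBS WT library and 1.18 with the first raised to the floor. Cxcl3 lay the other way, at -1.68 ± 0.51 (-2.93 to -0.50, edgeR adjusted p = 0.185), or -2.50 without the first PBS KO library. With the libraries below the floor raised to it, the Cxcl3 value was -0.10. Cxcl1 (-0.93 ± 0.43) and Cxcl2 (-0.82 ± 0.33) had lower means in PBS KO, but their libraries overlapped between the genotypes, and the Cxcl1 value was -1.58 without the second PBS KO library and -0.24 without the second PBS WT library. Cxcl9 stood at 0.65 ± 0.41 (1.38 without the second PBS WT library), Cxcl10 at -0.07 ± 0.19 and Cxcl16 at -0.03 ± 0.12.

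**Figure D3:**
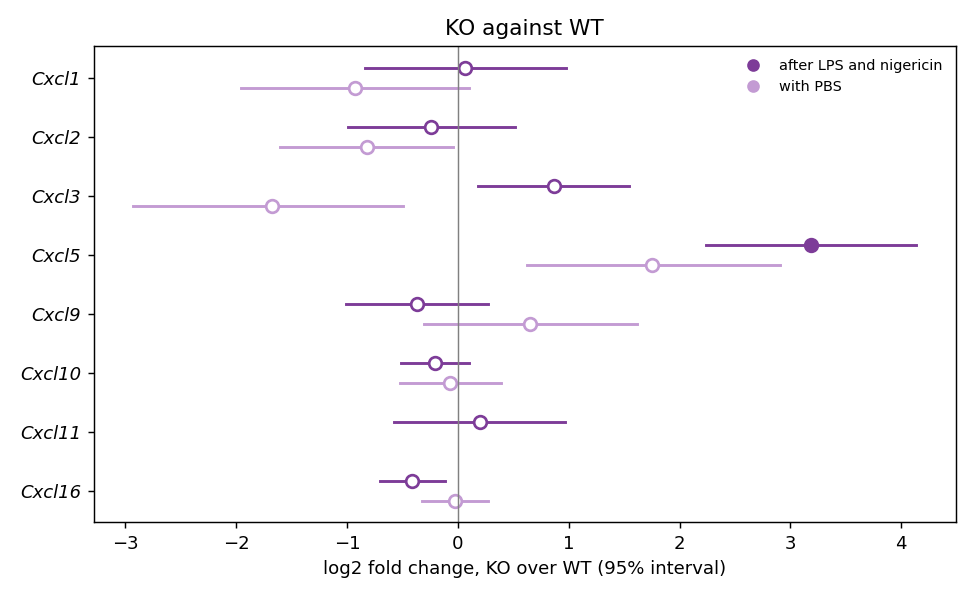
Points give the log2 fold change of KO over WT with its 95% interval, after LPS and nigericin (dark, upper) and with PBS (light, lower); filled points passed the edgeR threshold. Cxcl5 after stimulation, at 3.18, is the one filled point, Cxcl3 has opposite signs with and without the stimulus, its PBS value resting on libraries below the floor, and Cxcl11 has no PBS value because all 4 PBS libraries held 0 counts.

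Did the stimulus act differently in KO and WT? The test of the difference between the responses called 0 of the 7 members by edgeR, beside 0.498% of all tested genes, and 1 member (Cxcl3) was at an unadjusted p under 0.05, beside 10.7%. For Cxcl3 the response was larger in KO by 2.54 ± 0.58 on the log2 scale (95% interval 1.19 to 3.97, edgeR adjusted p = 0.162). DESeq2 called it (2.59, adjusted p = 0.0274; range over the alternatives 0.0274 to 0.494), limma-voom did not, and the value was 3.36 without the first PBS KO library. With the PBS libraries below the floor of 12 counts raised to it, the Cxcl3 difference was 0.97. The differences were 1.43 ± 0.62 for Cxcl5, 1.00 ± 0.58 for Cxcl1, 0.58 ± 0.46 for Cxcl2, -0.14 ± 0.23 for Cxcl10, -0.38 ± 0.18 for Cxcl16 and -1.02 ± 0.49 for Cxcl9. Several rest on single PBS libraries. The Cxcl5 value was 0.49 without the second PBS WT library and 2.01 with the first raised to the floor, the Cxcl1 value was 0.32 without the second PBS WT library and 1.64 without the second PBS KO library, and the Cxcl9 value was -1.73 without the second PBS WT library. In the fit of 8 libraries the 4 Cxcr2 ligands had positive values and the others negative ones, but 6 of these 7 intervals include 0. These differences share their libraries with the comparisons above and are not independent of them.

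Like Cxcl5, most fibroblast and stromal markers were higher in KO than in WT after stimulation. On stimulation in WT they did not follow Cxcl5, which rose in edgeR while 4 of the 7 markers were called lower. The 7 markers summed to 357 and 319.6 CPM in stimulated KO libraries, 128 and 124 in stimulated WT libraries, 264 and 282 in PBS KO libraries and 170.0 and 189.6 in PBS WT libraries, and none of the 7 was at 0 in any group. After stimulation 6 of 7 were higher in KO than in WT, among them the collagens Col1a1 (1.33 ± 0.09) and Col3a1 (1.59 ± 0.09) and the matrix protein Dcn (1.53 ± 0.10), all with an edgeR adjusted p of 0.00147 or less. Over all tested genes 2.91% were called higher in this comparison and 4.92% in either direction. With PBS 2 of 7, Col3a1 and Dcn, were higher in KO, beside 1.55% of all tested genes called in either direction. Cxcl12, the CXC chemokine left out of the group and a product of bone marrow stroma, had 11.0 and 9.82 CPM in stimulated KO libraries, 2.24 and 2.34 in stimulated WT libraries, 11.9 and 13.0 in PBS KO libraries and 6.84 and 8.20 in PBS WT libraries. It was higher in stimulated KO than in stimulated WT by 2.18 ± 0.15 (edgeR adjusted p = 0.00133). On stimulation 4 of the 7 markers were called higher in KO (Col1a1, Col3a1, Dcn and Pdgfrb), while in WT 1 was called higher (Pdgfrb) and 4 lower (Col1a1, Col1a2, Col3a1 and Pdgfra). The shares over all tested genes were 20.2% higher in KO, and 20.6% higher and 20.0% lower in WT. Of 4 B and plasma cell markers, Jchain and Cd79a were higher in stimulated KO than in stimulated WT as well, the list summing to 2.84 and 3.04 CPM in stimulated KO libraries and 0.327 and 0.396 in stimulated WT libraries, while of 7 macrophage markers Adgre1 and Lyz2, the gene that carries Cre, were lower. The part of other cell types in the Cxcl5 result was not tested.

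**Figure D4:**
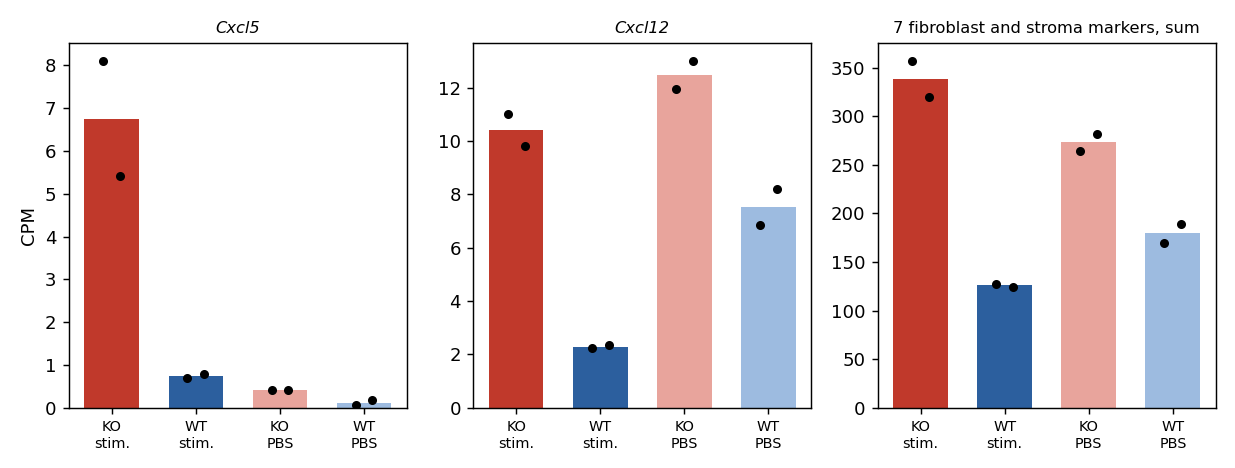
Bars give the mean CPM of each group, from stimulated KO on the left to PBS WT on the right, and dots the 2 libraries, for Cxcl5, for Cxcl12 and for the sum of 7 fibroblast and stromal markers; each panel has its own axis from 0. All 3 are higher in KO than in WT after stimulation, while Cxcl5 alone of the 3 is low in both PBS groups.

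The nearest genes to each member were taken by their pattern over the 8 libraries. The measure was the root mean square difference of centred log2(CPM + 1), among 9241 genes reaching 10 CPM. Of the 8 members, Cxcl5 had the most distant nearest gene. Its nearest were Sod3 (0.34), C1s1 (0.37) and Col5a3 (0.40), an extracellular superoxide dismutase, a complement protease and a fibrillar collagen. For Cxcl1 the nearest was Cxcl2 (0.22), and the converse held. Cxcl9 was nearest to the guanylate-binding protein gene Gbp2 (0.13), Cxcl10 to the cytokine genes Tnf (0.20) and Il1a (0.22), and Cxcl3 to Icosl (0.13), Foxp4 (0.13) and Socs1 (0.17). Cxcl16 was nearest to Cox17 (0.067) and Cxcl11 to Jun (0.054); the pseudocount shrinks the pattern of scarce genes such as Cxcl3, Cxcl5 and Cxcl11, so their distances are not on the same footing.

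Of the 6 receptors listed for these ligands, 4 passed the filter and 1 was called, in both genotypes. Cxcr3, the receptor of Cxcl9, Cxcl10 and Cxcl11, fell on stimulation by 2.96 on the log2 scale in KO (1.34 and 1.14 CPM in stimulated KO against 9.07 and 10.3 in PBS KO, edgeR adjusted p = 2.04e-04) and by 2.68 in WT (0.618 and 1.08 CPM in stimulated WT against 5.05 and 5.90 in PBS WT). Cxcr2 was at most 0.136 CPM and Cxcr6 at most 0.470 CPM in any library. Among 6 proteases that shed or cut chemokines, the elastase Mmp12 and the collagenase Mmp8 fell in both genotypes, Mmp9 rose in both, Adam10 fell in KO and Adam17 rose in WT. Tested genes as a whole were called higher for 20.2% and lower for 19.0% in KO, and for 20.6% and 20.0% in WT. The difference of responses was called for Mmp12 alone of the 6. In PBS WT the libraries were uneven for Adam10 (116 and 208 CPM) and Adam17 (175 and 270 CPM). Mmp12 was also lower in stimulated KO, at 295.7 and 292 CPM, than in stimulated WT, at 388 and 417 (-0.45 ± 0.06, edgeR adjusted p = 0.0101, up to 0.0841 with 1 library left out).

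Upstream of the neutrophil attractants, 8 of 10 NF-kB factors and feedback genes rose in KO and 7 of 10 in WT. Of all tested genes, 20.2% were called higher and 19.0% lower in KO, and 20.6% and 20.0% in WT. Nfkbiz, an atypical IkB protein, rose by 4.54 ± 0.17 in KO and 4.61 ± 0.17 in WT, and the inhibitor Nfkbia by 3.54 ± 0.09 in KO and 3.81 ± 0.09 in WT. Of 13 interferon inputs of the Cxcr3 ligands, 7 rose and 2 (Ifngr1 and Irf8) fell in KO, while 7 rose and 1 (Ifngr1) fell in WT. Among them Irf7 rose by 4.34 ± 0.11 in KO and 5.24 ± 0.11 in WT. Between stimulated KO and stimulated WT the median log2 difference was -0.14 over the NF-kB list and -0.03 over the interferon list. With PBS, Irf7 was higher in KO (42.0 and 43.8 CPM in PBS KO, 22.9 and 27.6 in PBS WT; 0.76 ± 0.10, edgeR adjusted p = 0.0167, up to 0.103 with 1 library left out).

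Among 12 genes of mRNA decay and stability, 6 rose and 3 fell on stimulation in KO, and 5 rose and 4 fell in WT. Over all tested genes the shares were 20.2% higher and 19.0% lower in KO, and 20.6% and 20.0% in WT. Zfp36, which binds AU-rich elements and promotes decay, rose by 1.79 ± 0.14 in KO and 2.56 ± 0.15 in WT, while its relative Zfp36l1 fell by 1.73 in KO and 1.72 in WT. Rc3h1, a decay factor that binds stem-loops, was the one gene of the list that differed between the genotypes after stimulation, with 42.8 and 40.6 CPM in stimulated KO and 26.6 and 25.4 in stimulated WT (0.68 ± 0.09, edgeR adjusted p = 0.0114, up to 0.0915 with 1 library left out). Of 14 genes beside the chemokine clusters, 11 were tested, and 5 rose and 1 fell in each genotype; Naaa, near Cxcl9, was higher in stimulated KO, at 61.1 and 49.3 CPM, than in stimulated WT, at 27.3 and 31.4 (0.91 ± 0.14, edgeR adjusted p = 0.0199, up to 0.110 with 1 library left out).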

How the data were processed

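Per the labels' protocols, Trizol-extracted RNA was made into libraries with a commercial kit whose strand setting is not stated. The submitters' processing notes name Trimmomatic, Bowtie2, edgeR and mm10, without versions. The tool and annotation behind the counts are not given in those sources. The deposited table holds whole-number counts per Ensembl gene, used as deposited. Low counts pile up at multiples of 4 (4 counts in 1048 to 1171 genes per library, 3 counts in 326 to 354), so the floor for 0 counts was set at 3 steps, or 12 counts per library; it covers counting error only.

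Symbols and coordinates came from GENCODE M21 (55141 of 55401 genes), promoters from RefSeq (GRCm38.p6). Genes were kept by filterByExpr (minimum count 10, minimum total 15), which left 17470. edgeR 4.0.16 in R 4.3.3 fitted all 8 libraries with TMM factors (0.888 to 1.068) and no covariates, over 5 comparisons, and was tested on simulated data. Standard errors are the unshrunk log2 fold change over the square root of F. Alternatives were DESeq2 1.42.0, limma-voom 3.58.1, other scalings and filters, the groups compared alone, a replicate block, each library left out, and counts divided by 4, the last chosen after seeing the data. Mitochondrial genes took 1.84 to 3.36% of the counts. The members and lists were chosen with earlier results of these data known. All 8 members are described; listed genes are named where called, as examples, and the nearest 3 patterns per member are from genes averaging 10 CPM or more in their highest group. Some items are not reported here.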

Additional observations from a re-analysis of the deposited data

Results flagged for a closer look

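No member met a rule for a closer look; 3 listed genes did, each because the test of the difference between the KO and WT responses passed the edgeR threshold. The chemokine Cxcl12 was called lower on stimulation in WT and was not called in KO. Its response was higher in KO than in WT by 1.45 ± 0.20 on the log2 scale (edgeR adjusted p = 0.0440). The call was lost in each fit with 1 library left out, where the value ran from 1.34 to 1.58. The stromal collagen Col3a1 differed in the same direction by 0.93 ± 0.12 (adjusted p = 0.0411, up to 0.183 with 1 library left out). The protease Mmp12 fell on stimulation in both genotypes and fell further in KO. It had 296 and 292 CPM in stimulated KO libraries against 1004 and 1025 in PBS KO. In WT it had 388 and 417 CPM in stimulated libraries against 928 and 929 in PBS libraries. The difference of the responses was -0.58 ± 0.08 (edgeR adjusted p = 0.0466). With 1 library left out the value ran from -0.64 to -0.51, and the call was lost in most of these fits. Cxcl12 missed the threshold in limma-voom (0.0624) and with no filter on low counts (0.0555), as did Mmp12 with no filter (0.0562), while DESeq2 called all 3.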

How the results depend on the processing

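Of the single-gene values of the members under the alternatives, 588 kept their direction and their side of the threshold, 4 gained a call, 4 lost one and 7 changed sign. All 8 members stayed higher on stimulation in both genotypes except that the filter of 5 CPM in 2 libraries removed Cxcl11 (7 of 7) and limma-voom called 7 in WT. After stimulation 1 member (Cxcl5) differed between KO and WT in the 8-library edgeR fit, 2 in DESeq2 (Cxcl5 and Cxcl16), 2 in limma-voom (Cxcl3 and Cxcl5), and 0 to 1 with 1 library left out. DESeq2 called 1 member with PBS (Cxcl5) and 1 in the difference of the responses (Cxcl3), against 0 in edgeR. The 7 sign changes were of values near 0 that no tool called. With 1 library left out, the Cxcl1 difference after stimulation ran from -0.019 (without the first stimulated KO library) to 0.15, the Cxcl10 difference of responses from -0.42 to 0.11 (without the first PBS WT library), the Cxcl10 difference with PBS from -0.32 to 0.22 (0.03 without the second PBS KO library, 0.22 without the second PBS WT library) and the Cxcl16 difference with PBS from -0.23 to 0.15 (0.15 without the second PBS KO library, 0.03 without the first PBS WT library); with library size alone the last was 0.0072. The cause was not tested. Over all tested genes DESeq2 called 486, 1654 and 876 for the difference of responses, the genotype after stimulation and the genotype with PBS, against 87, 860 and 271 in edgeR, and the groups compared alone gave 503 and 45 for the 2 genotype comparisons. With 1 library left out, where the lone library of its group is assumed to vary like the others, the range was 20 to 99, 156 to 594 and 80 to 260. Library size alone moved the median of all genes to -0.20 on stimulation in WT, -0.11 in KO and 0.13 for the genotype after stimulation, with the same members called. Deviations of libraries with the same replicate number correlated at -0.0150 to 0.101 between groups, which cannot settle whether the libraries were paired. In PBS libraries of both genotypes the second was higher for Cxcl1, Cxcl2, Cxcl5 and Cxcl9 and lower for Cxcl3 and Cxcl16, while Cxcl10 went opposite ways. With the replicate block Cxcl5 was 3.19 after stimulation (edgeR adjusted p = 0.0223). The block changed no call of a member and left 672 genes called after stimulation. Under it the differences of responses of Cxcl12, Col3a1 and Mmp12 missed the threshold (edgeR adjusted p = 0.0762, 0.0718 and 0.0690). Among the groups compared alone with PBS, Cxcl3 and Cxcl11 were filtered out. Raising libraries below the floor of 12 counts to it, chosen after seeing the data, left the Cxcl3 difference of responses at 0.97. Depth limits Cxcl3, Cxcl5 and Cxcl11 with PBS, at 0 to 26 counts per library.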

Other observations

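The ratio of Cxcl2 to Cxcl1, neighbours in the chromosome 5 cluster, was even within the stimulated groups. Per kb of exon it was 3.80 and 3.85 in stimulated KO libraries, 4.75 and 4.73 in stimulated WT libraries, 4.83 and 3.80 in PBS KO libraries and 4.26 and 3.64 in PBS WT libraries. The stimulated KO libraries thus lay below the stimulated WT libraries, while the PBS libraries overlapped; the ratio was picked after its values were seen and was not tested.

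Cxcl13, a B cell attractant outside the group, had 0.850 and 0.883 CPM in stimulated KO libraries and 0.145 and 0.0688 in stimulated WT libraries, with 0 counts in all 4 PBS libraries. The stimulated WT values lie below the floor of 12 counts, which averaged 0.212 CPM there. Between stimulated KO and stimulated WT edgeR did not call Cxcl13. Cxcl14 had 4.38 and 4.38 CPM in stimulated KO libraries, 3.75 and 4.47 in stimulated WT libraries, 8.36 and 6.55 in PBS KO libraries and 10.5 and 8.60 in PBS WT libraries, and fell on stimulation in both genotypes in edgeR.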
